A study of Mus musculus with 7 samples.

Results

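The genes described here encode the nuclear part of the mitochondrial respiratory chain. They were taken by symbol, as rows of the RNA count table that start with Ndufa, Ndufb, Ndufc, Ndufs, Ndufv, Sdha, Sdhb, Sdhc, Sdhd, Uqcr, Cox4, Cox5, Cox6, Cox7, Cox8 or Atp5 and hold at least 30 unique molecular identifiers (UMIs, counted RNA molecules) over all cells. Of the 25127 genes in the table, 96 matched a prefix and 90 of these held enough UMIs. Of the 90, 76 encode subunits of complexes I to V, and the other members are assembly factors of complexes I and II (Ndufaf and Sdhaf genes) and Cox7a2l, Atp5s and Atp5sl. The members just inside the minimum were Cox6a2 with 34 UMIs, Atp5s with 56 and Sdhaf3 with 125. The 6 genes outside were Cox4i2 with 18 UMIs, Ndufa4l2 with 6, Ndufs5 with 3, Cox8c with 1, and Cox7b2 and Cox8b with 0.

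All cells came from C57/Bl6 mice and were enriched for CD11b, an integrin chain of myeloid cells such as monocytes, macrophages and neutrophils. Naive mice gave the libraries of naive blood, naive bone marrow and naive spleen. Mice with an LLC tumor (Lewis lung carcinoma, a transplantable mouse tumor) at day 14 gave those of tumor-bearing blood, tumor-bearing bone marrow, tumor-bearing spleen and tumor tissue. Each group was 1 library, so no difference within a tissue has a replicate check and none was tested. The state was tested across the 3 tissues that have both a naive and a tumor-bearing library. The labels do not say how many animals a library held or which libraries share animals.

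The respiratory chain passes electrons from NADH and succinate to oxygen through complexes I to IV of the inner mitochondrial membrane, and complex V, the ATP synthase, uses the proton gradient this builds to make ATP. Complex II also belongs to the tricarboxylic acid cycle, and it is the only complex whose subunits are all encoded in the nucleus. The mitochondrial genome encodes at least 1 subunit of each of the others, so the complexes need both genomes. Macrophages are known to shift between oxidative metabolism and glycolysis with their state.

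Gene counts were held for 4290 cells, between 57 in tumor-bearing bone marrow and 1917 in tumor tissue, and the libraries held 617821 to 20844058 UMIs. Median UMIs per cell ran from 8841 in tumor tissue to 12445 in tumor-bearing blood, and 4 cells carried a barcode found in more than 1 library. The myeloid markers Itgam, Lyz2, Csf1r and Ptprc were detected in every library, with a summed level from 7646 counts per 1000000 UMIs (CPM) in tumor tissue to 20393 in naive spleen. The summed level of 10 neutrophil markers was 1472 CPM in naive blood and 3966 in tumor-bearing blood, 8967 and 8148 in the marrow, 2847 and 4800 in the spleen, and 367 in tumor tissue, with at least 8 of the 10 detected in each library; S100a8 and S100a9 on that list are also expressed by monocytes. The summed level of 7 macrophage markers was 3087 and 1668 CPM in naive and tumor-bearing blood, 2450 and 1007 in marrow, 2379 and 1433 in spleen, and 5756 in tumor tissue, with at least 4 of the 7 detected in each library. The part of these shifts in the results below was not tested, beyond the comparisons inside single clusters.

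Together the 90 genes took 2.13% of all UMIs in naive blood and 2.26% in tumor-bearing blood. They took 2.34% in naive bone marrow and 2.49% in tumor-bearing bone marrow, and in spleen 2.14% and 2.30%. Tumor tissue had the lowest share of the 7 libraries, 1.90%. Each tumor-bearing library was thus a little above the naive library of its tissue, marrow was above blood and spleen in both states, and tumor tissue was below every other library. The summed level of tumor-bearing over naive was 1.06-fold in blood (1.06 to 1.07), 1.06-fold in bone marrow (1.04 to 1.08) and 1.07-fold in spleen (1.06 to 1.08). Ranges in parentheses after folds are exact 95% intervals that cover counting error only. Tumor tissue was 1.19-fold lower than tumor-bearing blood (1.18 to 1.2) and 1.21-fold lower than tumor-bearing spleen (1.2 to 1.22). These 2 comparisons share the tumor tissue library, and each of them shares its other library with a comparison of tumor-bearing over naive.

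**Figure D1:**
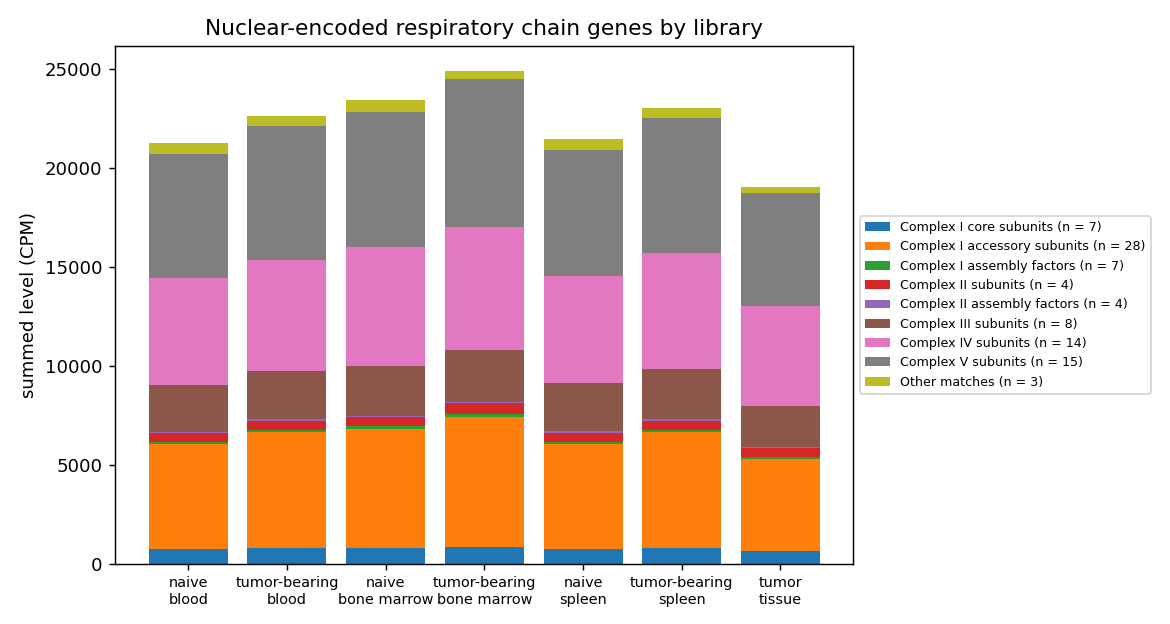
Summed level in CPM (y axis) of the members in each of the 7 libraries (x axis), stacked by role. Bars run from 18998 CPM in tumor tissue to 24896 in tumor-bearing bone marrow, and each tumor-bearing bar stands above the naive bar of its tissue.

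The same order was seen cell by cell. The median cell of blood gave 2.12% of its UMIs to these genes in naive and 2.24% in tumor-bearing mice. The medians were 2.31% and 2.45% in marrow and 2.14% and 2.28% in spleen, and 1.85% in tumor tissue. The middle cells overlapped widely between states: the quartiles were 1.96% and 2.29% in naive blood and 2.04% and 2.46% in tumor-bearing blood. The quartiles lay furthest apart in tumor tissue, at 1.62% and 2.10%, and nearly as far in naive bone marrow, at 2.12% and 2.57%.

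Most members took part in the small difference between tumor-bearing and naive mice. A gene was measured in a comparison when its UMIs in both libraries summed to 30 or more and 1 of them reached 20 CPM, and 79 of the 90 members were measured in each of the 5 comparisons. In blood 71 of the 79 were higher in tumor-bearing mice by any amount, against 52.9% of all genes measured. In bone marrow 62 were higher against 54.3%, and in spleen 63 against 54.3%. The size was small: the median log2 ratio of the members was 0.09 in blood, 0.12 in marrow and 0.10 in spleen, beside 0.01, 0.04 and 0.02 over all genes measured (log2 ratios use a pseudo-count of 1 CPM). In these tissues, which share no library, 49 of the 79 members were higher in all 3, or 62.0%, against 22.2% of all genes. Cox7a2l and Uqcrh were the only members lower in all 3, where 16.2% of all genes were.

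Few members passed 1.5-fold. In blood 1 member was higher by that size, Atp5k, where 1.62% of all genes were higher and 0.755% lower, and no member was lower. In spleen 1 was higher, Atp5k again, where 1.51% of all genes were higher and 0.663% lower, and no member was lower. In bone marrow 3 members were higher (Ndufaf7, Atp5k and Uqcrc1) and 1 lower (Sdhaf4), of 79 measured, both below the background of 8.34% and 6.98%. Without the cell with the most UMIs of each gene, Ndufaf7 and Atp5k were each 1.49-fold higher in marrow, just under the rule, and Uqcrc1 was 1.59-fold higher, while Sdhaf1, Sdhaf2 and Sdhaf4 were lower by the rule, so that 1 member was higher and 3 were lower. At 2-fold no member was higher or lower in any of these tissues, where 0.566% of all genes were higher and 0.132% lower in blood, 1.34% and 1.89% in marrow, and 0.332% and 0.0553% in spleen.

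**Figure D2:**
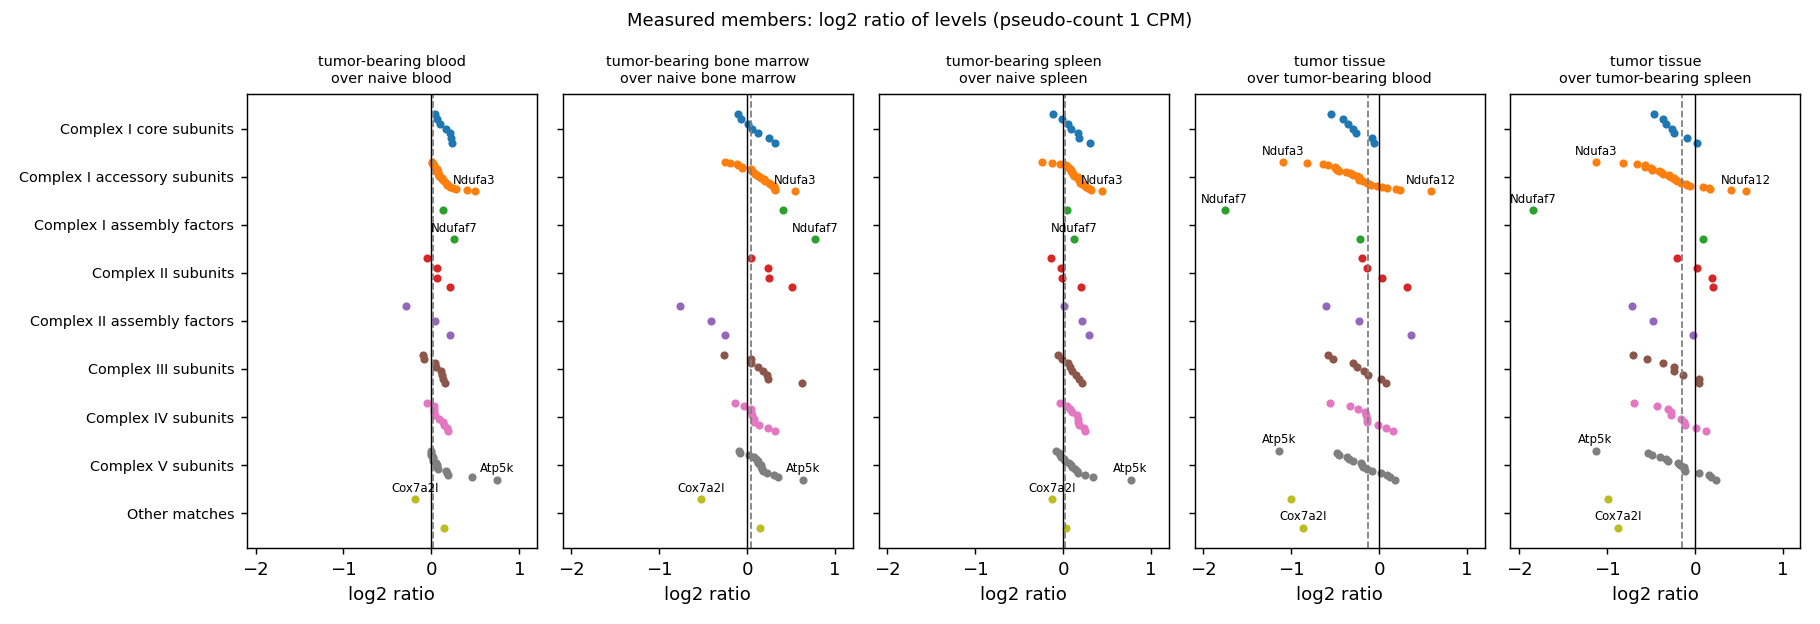
Log2 ratio of levels (x axis) of each measured member, 1 point a gene, by role (y axis) in the 5 comparisons. The dashed line is the median of all genes measured and the solid line is 0. In the 3 panels of tumor-bearing over naive most points lie right of 0 with Atp5k and Ndufa3 on the right, and in both tumor tissue panels most lie left of 0, with Atp5k at -1.14 and -1.13.

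The state was also tested with tissue as a block, a test chosen after the data were seen, over the 3 pairs of libraries from blood, bone marrow and spleen (edgeR's quasi-likelihood test with Benjamini-Hochberg adjustment over 5019 genes, 2 residual degrees of freedom, so that the p-values lean on the spread estimated over all genes). At an adjusted p under 0.05, 3 of the 79 members were higher in tumor-bearing mice, where 2.11% of all genes were, and 0 were lower, where 1.65% were. At an unadjusted p under 0.05 the members counted 16 higher and 1 lower, against 403 and 426 of all genes. The 3 were Atp5k (log2 ratio 0.71, adjusted p = 2.99e-05), Ndufa3 (0.46, adjusted p = 0.00071) and Atp5g3 (0.36, adjusted p = 0.00952), each higher in 3 of 3 tissues. Cox7a2l, lower in 3 of 3, missed the threshold (-0.27, adjusted p = 0.0641). Without blood the call of Atp5g3 was lost (adjusted p = 0.364), without bone marrow Ndufv3 passed (adjusted p = 0.00763), and without spleen Cox7a2l passed (adjusted p = 0.018). These p-values treat tissues as the replicates of the state. Whether blood, marrow and spleen of a state came from the same animals is not stated. If they did, the tissues are not independent replicates and the p-values are too small.

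Atp5k, which encodes the small membrane subunit e of the ATP synthase, had the largest ratio of the members in blood and spleen. In blood its level was 168 CPM in naive and 282 in tumor-bearing mice. The naive and tumor-bearing levels were 207 and 322 CPM in bone marrow and 165 and 281 in spleen. Tumor tissue held 128 CPM. The 3 tumor-bearing libraries of blood, marrow and spleen were thus above all 3 naive libraries, and tumor tissue was below all of them. Atp5k was 1.68-fold higher in tumor-bearing blood (1.56 to 1.81), 1.56-fold in bone marrow (1.30 to 1.86) and 1.70-fold in spleen (1.56 to 1.86). It was the only member at 1.5-fold or more in all 3 tissues, where 0.299% of all genes were.

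Ndufa3, an accessory subunit of complex I, showed the same order. Its level was 250 CPM in naive blood, 292 in naive bone marrow and 263 in naive spleen, against 351, 426 and 358 in the tumor-bearing libraries of the same tissues and 164 in tumor tissue. It was 1.41-fold higher in tumor-bearing blood (1.32 to 1.5), 1.46-fold in marrow (1.25 to 1.70) and 1.36-fold in spleen (1.26 to 1.46). Atp5k and Ndufa3 were the members at 1.25-fold or more in all 3 tissues, where 1.14% of all genes were. No member was lower by 1.25-fold in all 3, where 0.538% of all genes were, or by 1.5-fold, where 0.0797% were. Ndufa3 overlaps Tfpt on the opposite strand in the annotation used here, and how strand was handled in counting is not given in the sources used here. Cox7a2l and Uqcrh, lower in all 3 tissues and lower again in tumor tissue, are described further down.

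The 250 bases before the RefSeq start of Atp5k, Ndufa3 and Cox7a2l are shown as examples. The order of libraries seen in Atp5k and Ndufa3 was not particular to them. Ndufa1, Atp5e and Ndufa5 also had each tumor-bearing library of blood, marrow and spleen above all naive ones, with tumor tissue lowest. The windows come from RefSeq promoters (GRCm38.p6). Capitals mark the motif matches described with the promoters of all members. Atp5k lies on chromosome 5 (minus strand, window chr5:108434400-108434649), Ndufa3 on chromosome 7 (plus strand, chr7:3617123-3617372) and Cox7a2l on chromosome 17 (minus strand, chr17:83514334-83514583). In Atp5k the capitals mark a match to the NRF1 motif, and in Ndufa3 and Cox7a2l a match to the SP/KLF motif. Gene ends differ in the annotation used for overlaps (GENCODE M21). There Cox7a2l reaches chr17:83517330, so its whole window lies inside the gene. Atp5k reaches chr5:108434448 there, so part of its window lies inside the gene.
Atp5k: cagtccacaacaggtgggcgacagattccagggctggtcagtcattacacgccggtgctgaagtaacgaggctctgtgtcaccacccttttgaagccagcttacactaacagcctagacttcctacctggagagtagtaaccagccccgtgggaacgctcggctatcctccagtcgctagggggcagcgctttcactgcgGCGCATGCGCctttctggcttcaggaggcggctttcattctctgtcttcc
Ndufa3: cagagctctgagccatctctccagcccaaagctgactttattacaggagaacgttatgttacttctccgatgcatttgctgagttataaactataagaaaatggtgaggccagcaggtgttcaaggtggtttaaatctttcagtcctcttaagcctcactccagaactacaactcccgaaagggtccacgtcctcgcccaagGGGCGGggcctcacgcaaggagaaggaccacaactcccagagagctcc
Cox7a2l: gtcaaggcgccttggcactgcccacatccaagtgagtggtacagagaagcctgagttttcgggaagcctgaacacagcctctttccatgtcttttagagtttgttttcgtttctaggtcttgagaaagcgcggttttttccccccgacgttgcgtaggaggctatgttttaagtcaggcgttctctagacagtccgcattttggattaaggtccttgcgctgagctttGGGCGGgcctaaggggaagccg

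Atp5k and Ndufa3 stand among the shortest members. The longest annotated protein-coding transcript has 371 bases for Atp5k, the lowest of the 90, and 515 for Ndufa3, and those of the other members reach 4715 (Atp5g1). Over all genes measured, short transcripts had ratios of the same sign as Atp5k in blood, spleen and tumor tissue, and near 0 in bone marrow. Genes with no transcript over 500 bases, 29 in each comparison, had a median log2 ratio of 0.17 in blood, 0.03 in bone marrow and 0.14 in spleen, and of -0.48 and -0.47 in tumor tissue over tumor-bearing blood and over tumor-bearing spleen. For the 4 genes with none over 400 bases, Atp5k among them, the medians were 0.44, 0.13, 0.45, -0.97 and -1.03. For genes of 500 to 600 bases, the range that holds Ndufa3, the medians were 0.08 in blood, -0.10 in marrow and 0.09 in spleen, and -0.34 and -0.35 in the tumor tissue comparisons. The other members under 500 bases had smaller ratios than Atp5k: Ndufa1 (419 bases) had 0.28 in blood and 0.18 in spleen, and Atp5e (421 bases) 0.19 and 0.14. Across the 79 measured members Spearman's rho between length and log2 ratio was -0.10 in blood, 0.04 in marrow, -0.20 in spleen, and 0.22 and 0.29 in the tumor tissue comparisons, as a description over genes that share the same libraries. Over all measured genes with a length it was -0.19, -0.15, 0.06, 0.01 and -0.14, of the other sign than the members' in marrow, spleen and tumor tissue over tumor-bearing spleen. The part of transcript length in the values of Atp5k and Ndufa3 was not tested.

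**Figure D3:**
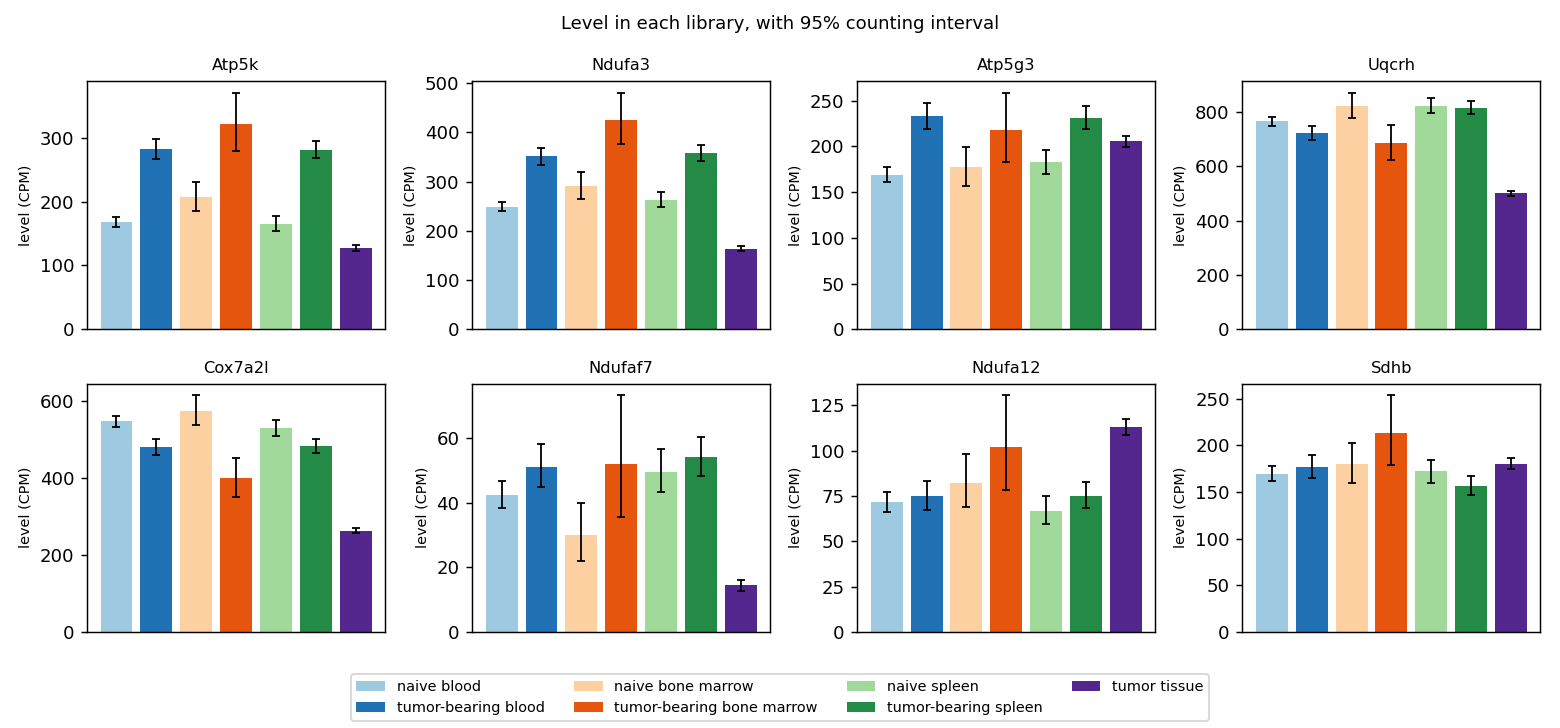
Level in CPM (y axis, from 0) of 8 members in each of the 7 libraries (bars), with 95% counting intervals as error bars. Atp5k and Ndufa3 are higher in each tumor-bearing library of blood, marrow and spleen than in any naive one, and Cox7a2l, Ndufaf7 and Uqcrh have their lowest level in tumor tissue, where Ndufa12 has its highest.

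Complex I, the NADH dehydrogenase, is the largest of the complexes. Its 7 nuclear-encoded core subunits carry the flavin and iron-sulfur clusters. Their summed level was 739 CPM in naive blood and 814 in tumor-bearing blood, 815 and 866 in bone marrow, 743 and 776 in spleen, and 652 in tumor tissue. All 7 were higher in tumor-bearing blood, and 5 of 7 in marrow and in spleen. Ndufs7, the core subunit with the highest mean level, had 141 and 159 CPM in naive and tumor-bearing blood, 172 and 178 in marrow, 155 and 153 in spleen, and 119 in tumor tissue. Ndufs1, the largest iron-sulfur subunit, had 29.9 and 35.1 CPM in blood, 27.9 and 25.9 in marrow, 32.1 and 39.8 in spleen, and 28.4 in tumor tissue. Ndufs8 differed between tissues: 130 and 154 CPM in blood and 151 and 180 in marrow, but 136 and 125 in naive and tumor-bearing spleen, with 105 in tumor tissue. That difference between tissues was not tested.

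The accessory subunits of complex I surround the core, and 28 of them were members. All 28 were higher in tumor-bearing blood, 22 in marrow and 25 in spleen, and their summed level was 1.10-fold higher in blood (1.08 to 1.11), 1.09-fold in marrow (1.05 to 1.13) and 1.11-fold in spleen (1.09 to 1.13). Ndufa13, with the highest mean level of them, had 396 and 397 CPM in naive and tumor-bearing blood, 390 and 408 in marrow, 373 and 408 in spleen, and 306 in tumor tissue. Ndufv3, a small subunit of the NADH-binding part, had 113 and 150 CPM in blood, 151 and 139 in marrow and 109 and 133 in spleen, so marrow went the other way, and tumor tissue had the highest level, 176. Ndufa1 had 241 and 291 CPM in blood, 279 and 333 in marrow, 258 and 293 in spleen, and 208 in tumor tissue.

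Among the accessory subunits with the lowest ratios, Ndufa10 had 60.2 and 60.3 CPM in blood, 67.5 and 56.7 in marrow, 62.9 and 53.2 in spleen, and 43.0 in tumor tissue. Ndufab1, the mitochondrial acyl carrier protein, stayed between 73.2 and 82.4 CPM in the 7 libraries, with the highest value in tumor tissue. Ndufa5 had 74.6 and 86.2 CPM in blood, 79.8 and 92.3 in marrow, 72.6 and 90.9 in spleen, and 69.7 in tumor tissue. Ndufb6 had 110 and 116 CPM in blood, 120 and 129 in marrow, 101 and 119 in spleen, and 133 in tumor tissue, its highest level.

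Of the 7 assembly factors of complex I only Ndufaf3 and Ndufaf7 were measured. Ndufaf7, a methyltransferase that acts on a core subunit during assembly, had 42.4 and 51.1 CPM in blood, 29.9 and 51.8 in marrow, 49.5 and 54.1 in spleen, and 14.4 in tumor tissue. The marrow ratio, 1.73-fold (1.07 to 2.78), rests on few molecules, while tumor tissue was clearly below every other library. Ndufaf3 lay between 26.2 and 37.2 CPM, and the other 5 assembly factors reached at most 19.3 CPM.

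The 4 subunits of complex II, the succinate dehydrogenase, stood apart in their summed values. Their sum was 432 and 457 CPM in naive and tumor-bearing blood, 454 and 554 in marrow, 440 and 429 in spleen, and 449 in tumor tissue, so tumor tissue lay within the range of the other libraries. Sdha, the flavoprotein, had 94.3 and 90.9 CPM in blood, 94.1 and 97.1 in marrow, 92.5 and 91.4 in spleen, and 79.0 in tumor tissue. Sdhb, the iron-sulfur subunit, had 169 and 177 CPM in blood, 180 and 214 in marrow, 172 and 157 in spleen, and 180 in tumor tissue. The membrane anchor Sdhc had 48.7 and 51.1, 60.4 and 71.2, 48.8 and 56.2, and 64.1 CPM in the same order, and the anchor Sdhd 120 and 139, 120 and 172, 126 and 124, and 126. Marrow was the tissue with the largest summed ratio, 1.22-fold (1.07 to 1.39), and all 4 subunits were higher there.

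The complex II assembly factors were lower in tumor-bearing marrow, but at a depth of few molecules. Sdhaf2, which helps to attach the flavin to Sdha, had 32.6 and 26.5 CPM in blood, 30.5 and 22.7 in marrow, 30.1 and 34.9 in spleen, and 34.4 in tumor tissue. Sdhaf4 had 27.9 and 28.7, 33.8 and 19.4, 27.8 and 34.4, and 24.4 CPM, and its marrow ratio, 1.74-fold lower, had an interval that reached past 1 (0.92 to 3.58). Sdhaf1 had 20.3 and 23.7, 23.4 and 19.4, 25.3 and 25.6, and 15.2 CPM.

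Complex III, the cytochrome bc1 complex, had 8 members. Their sum was 2373 and 2418 CPM in naive and tumor-bearing blood, 2516 and 2617 in marrow, 2413 and 2530 in spleen, and 2045 in tumor tissue. Uqcrh, the hinge protein and the member with the highest mean level here, was lower in the tumor-bearing library of all 3 tissues. It had 765 and 721 CPM in blood, 823 and 685 in marrow, 823 and 815 in spleen, and 500 in tumor tissue, and was 1.06-fold lower in tumor-bearing blood (1.02 to 1.11), 1.2-fold lower in marrow (1.08 to 1.35) and 1.01-fold lower in spleen, where the interval included no change (0.97 to 1.05). Uqcrfs1, the Rieske iron-sulfur protein, had 228 and 213 CPM in blood, 226 and 257 in marrow, 219 and 210 in spleen, and 178 in tumor tissue. Uqcrc1, a core protein, was close between states in blood (144 and 155 CPM) and spleen (149 and 157) and apart in marrow (127 and 196), with 143 in tumor tissue.

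Complex IV, the cytochrome c oxidase, has subunits that exist as tissue isoforms, and the ubiquitous forms were the ones detected at high level. Cox4i1 had 1055 and 1023 CPM in naive and tumor-bearing blood, 1127 and 1096 in marrow, 1071 and 1105 in spleen, and 912 in tumor tissue, while its isoform Cox4i2 had 18 UMIs over all cells. Cox6a1 had 302 and 321 CPM in blood, 317 and 393 in marrow, 315 and 353 in spleen, and 291 in tumor tissue. Its heart and muscle isoform Cox6a2 had 34 UMIs in all, of which 26 lay in 2 cells of cluster 6 and 14 in 1 cell, so its level says little of a library. Cox6b1 lay between 512 and 602 CPM and its testis isoform Cox6b2 between 5.9 and 17.8, lowest in tumor tissue. Cox8a had 897 and 920 CPM in blood, 996 and 906 in marrow, 870 and 846 in spleen, and 781 in tumor tissue, and Cox8b had no UMI.

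Cox7a2 lay between 350 CPM in naive blood and 431 in tumor-bearing bone marrow, with 383 in tumor tissue. Its heart and muscle isoform Cox7a1 had at most 1.95 CPM in blood, marrow and spleen and 6.91 in tumor tissue, and failed the minimum level for a comparison. Ndufa4, named for complex I but known as a subunit of complex IV, had 435 and 444 CPM in blood, 484 and 499 in marrow, 455 and 488 in spleen, and 301 in tumor tissue, its lowest level. The related Ndufa4l2, a known hypoxia-induced gene, had 6 UMIs over all cells. Of the 10 complex IV members measured, 9 were higher in tumor-bearing blood, 8 in marrow and 9 in spleen, and their summed level was 1.05-fold higher in blood (1.03 to 1.07), 1.03-fold in marrow (0.99 to 1.07) and 1.08-fold in spleen (1.06 to 1.10).

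Some members share sequence with other genes. Cox7c, a ubiquitous subunit, had 222 UMIs, and 72.2% of the 60-base words in the last 300 bases of its transcripts also occur in Gm10012 or Gm12338, annotated genes with near-identical stretches. Gm12338 held 2592 UMIs, with 52.7 and 90.2 CPM in naive and tumor-bearing blood, 55.8 and 85.8 in marrow, 62.2 and 95.6 in spleen, and 33.8 in tumor tissue. Ndufs5 had 3 UMIs and shares 52.7% of those words with BC002163, which held 493. How reads that match more than 1 gene were counted is not given in the sources used here, so the levels of Cox7c and Ndufs5 are uncertain. Atp5l (68.5%) and Ndufs3 (51.0%) also share more than 50% of their words with other annotated genes and were not low, with 32959 and 4383 UMIs. By contrast, Atp5k, Ndufa3, Cox7a2l, Ndufaf7 and Ndufa12 share none.

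Complex V had 15 members and the largest summed level of the roles, with complex I counted as core and accessory subunits apart: 6271 and 6763 CPM in naive and tumor-bearing blood, 6787 and 7475 in marrow, 6340 and 6795 in spleen, and 5720 in tumor tissue. Atp5e, the epsilon subunit of the rotating stalk and the member with the highest mean level in this complex, had 878 and 1001 CPM in blood, 932 and 1017 in marrow, 933 and 1026 in spleen, and 728 in tumor tissue. Atp5b, the catalytic beta subunit, had 369 and 382 CPM in blood, 365 and 411 in marrow, 366 and 353 in spleen, and 417 in tumor tissue, its highest level. Beta and delta (Atp5d, 412 CPM in tumor tissue) thus had their highest level in tumor tissue, and Atp5e and Atp5k their lowest.

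The 3 genes of the membrane c-ring encode the same mature protein and did not move alike. Atp5g3 had 169 and 233 CPM in naive and tumor-bearing blood, 177 and 219 in marrow, 183 and 231 in spleen, and 206 in tumor tissue. It was 1.38-fold higher in tumor-bearing blood (1.28 to 1.49), 1.23-fold in marrow (1.0 to 1.52) and 1.26-fold in spleen (1.16 to 1.38). Atp5g1 had 237 and 251 CPM in blood, 261 and 290 in marrow, 212 and 251 in spleen, and 284 in tumor tissue. Atp5g2 had 387 and 393 CPM in blood, 393 and 367 in marrow, 385 and 391 in spleen, and 343 in tumor tissue, so it was the c-ring gene with the smallest differences between states.

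Cox7a2l, known for holding complexes III and IV together in supercomplexes, was lower in each tumor-bearing library. Its level was 547 and 481 CPM in naive and tumor-bearing blood, 575 and 400 in marrow, 529 and 483 in spleen, and 263 in tumor tissue. It was 1.14-fold lower in tumor-bearing blood (1.08 to 1.2), 1.44-fold in marrow (1.25 to 1.66) and 1.09-fold in spleen (1.04 to 1.16). All 3 naive libraries lay above all tumor-bearing ones, and tumor tissue was lowest by far, 1.83-fold below tumor-bearing blood (1.74 to 1.92) and 1.84-fold below tumor-bearing spleen (1.76 to 1.93). Atp5sl, which despite its symbol acts in complex I assembly, had 18.3 and 20.3 CPM in blood, 29.2 and 32.4 in marrow, 19.7 and 20.2 in spleen, and 9.6 in tumor tissue.

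In tumor tissue most members were lower than in blood or spleen of tumor-bearing mice. Against tumor-bearing blood 16 of 79 were higher by any amount, where 40.7% of all genes were, and the median log2 ratio was -0.23 beside -0.13 over all genes. Against tumor-bearing spleen 18 were higher, where 40.6% were, and the medians were -0.24 and -0.15. At 1.5-fold 10 members were lower than in tumor-bearing blood, where 21.2% of all genes were, and 1 was higher, where 17.1% were. The same counts stood against tumor-bearing spleen, where 25.4% of all genes were lower and 16.9% higher. The members' share past the rule was therefore below the background in both directions.

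The 10 members below tumor-bearing blood were Ndufaf7, Atp5k, Ndufa3, Atp5sl, Cox7a2l, Ndufa6, Ndufb3, Ndufb10, Sdhaf1 and Uqcrc2. Against tumor-bearing spleen Uqcrh and Ndufa4 took the places of Ndufb10 and Uqcrc2. At 2-fold, Ndufaf7, Atp5k, Ndufa3 and Atp5sl were lower in both comparisons, where 9.44% and 12% of all genes were. Ndufaf7 was 3.55-fold below tumor-bearing blood (2.98 to 4.23) and 3.76-fold below tumor-bearing spleen (3.20 to 4.42). Atp5k was 2.21-fold (2.06 to 2.36) and 2.20-fold (2.07 to 2.34) lower, and Ndufa3 2.14-fold (2.02 to 2.28) and 2.19-fold (2.07 to 2.31). Since the tumor-bearing libraries are the upper ones for Atp5k and Ndufa3, the naive levels of these genes lie closer to tumor tissue.

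The 1 member that was higher in tumor tissue by 1.5-fold or more was Ndufa12, an accessory subunit of complex I. It had 71.6 and 74.9 CPM in naive and tumor-bearing blood, 82.4 and 102 in marrow, 66.7 and 75.1 in spleen, and 113 in tumor tissue. It was 1.51-fold above tumor-bearing blood (1.35 to 1.70) and 1.51-fold above tumor-bearing spleen (1.36 to 1.67), close to the rule, and was under it in both comparisons when each cell was weighed the same, cells were thinned, the deepest cells or clusters 11, 12, 13 and 17 were left out, or the total was taken without mitochondrial, ribosomal-protein and haemoglobin genes. By complex, the summed level in tumor tissue was 1.25-fold lower than in tumor-bearing blood for complex I core subunits (and 1.25-fold for the accessory ones), 1.02-fold lower for complex II, 1.18-fold for complex III, 1.12-fold for complex IV and 1.18-fold for complex V. Against tumor-bearing spleen the values were 1.19-fold, 1.26-fold, 1.24-fold, 1.17-fold and 1.19-fold lower for complex I core, complex I accessory, III, IV and V, and complex II was 1.05-fold higher (1.0 to 1.10).

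The authors' clusters with cells of tumor tissue differed widely in these genes. Clusters are given by number, and 16 of 19 had counts. In the clusters made up mostly of blood, marrow and spleen cells, the summed level ran from 19836 CPM in cluster 16 to 23565 in cluster 0. In those with over 90% of their cells from tumor tissue it ran from 16984 CPM in cluster 10 to 22221 in cluster 9. Cluster 11, at 20093 CPM, and cluster 9 lay within the range of the former. The median cell of cluster 9 gave 2.21% of its UMIs to the members, the highest share of the tumor clusters. It was 1.97% in cluster 11, 1.93% in cluster 7 and 1.92% in cluster 17, near the 1.98% of cluster 16. The lowest were 1.67% in cluster 8, 1.68% in cluster 10, 1.77% in cluster 5 and 1.81% in cluster 3. With 1 library of tumor tissue, these clusters cannot be told apart from that library.

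**Figure D4:**
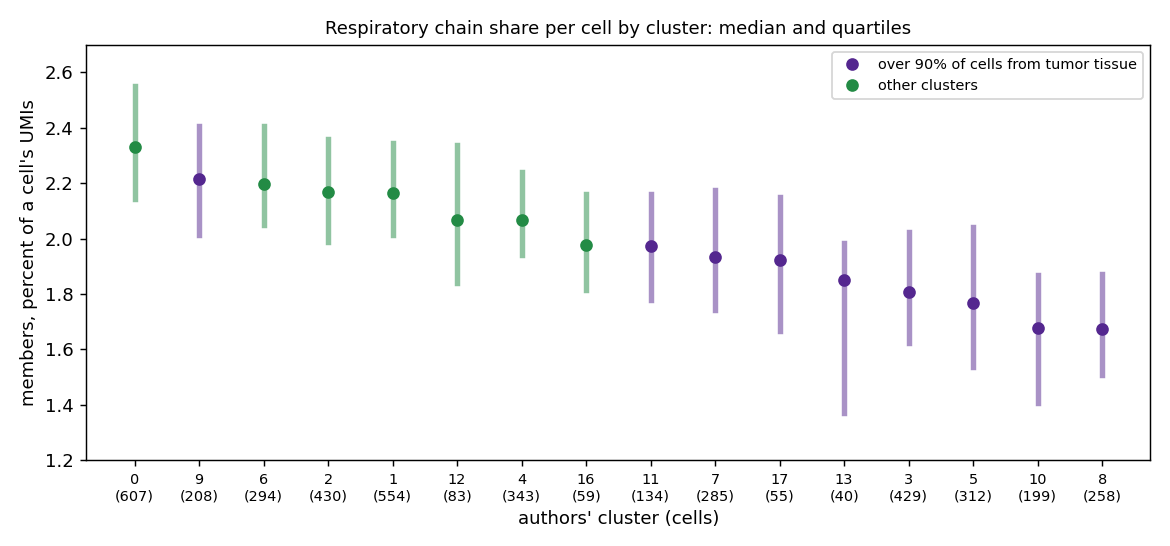
Percent of a cell's UMIs from the members (y axis, which does not start at 0) for each of the authors' clusters (x axis, number of cells in parentheses), with the median as a point and the quartiles as a bar. Cluster 0 is highest at 2.33%, and the 8 clusters with the lowest medians all have over 90% of their cells from tumor tissue.

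Single members drew the clusters apart in other ways than the sum did. Ndufaf7 had 44.7 CPM in cluster 9 and 35.2 to 57.0 in the clusters of blood, marrow and spleen, but only 8.05 to 14.7 in the tumor clusters 3, 5, 7, 8, 10, 11 and 17. Cox7a2l had 427 CPM in cluster 9 and 484 to 555 in the clusters of blood, marrow and spleen, and 200 to 318 in those 7 tumor clusters. Cluster 9 thus lay within the range of the blood, marrow and spleen clusters for Ndufaf7. For Cox7a2l it lay between that range and the 7 tumor clusters. Its Atp5k level, 150 CPM, was nearer to those tumor clusters (116 to 136) than to the clusters of blood, marrow and spleen (186 to 236). Ndufa12 split the tumor clusters: it had 137 CPM in cluster 3, 127 in cluster 8, 166 in cluster 11 and 137 in cluster 17, but 60.2 in cluster 5, 65.2 in cluster 7 and 62.1 in cluster 10. Cluster 13 had 40 cells with a median of 1478 UMIs and is not read for single genes. The clusters were made from these counts, so the order of clusters is a description.

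The difference between tumor-bearing and naive mice was also seen inside clusters. In 11 pairs both libraries of a tissue held at least 30 cells of a cluster: clusters 0, 1, 2, 4 and 6 in blood and in spleen, and cluster 0 in bone marrow. The summed level was higher in tumor-bearing mice in 10 of the 11, with intervals above 1 in the same number, by 1.04-fold to 1.11-fold. The exception was cluster 4 in blood, at 20471 against 20476 CPM, while cluster 4 in spleen was 1.05-fold higher (1.02 to 1.07). Cluster 0 had the largest ratios, 1.10-fold in blood (1.09 to 1.12) and 1.11-fold in spleen (1.09 to 1.12).

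Atp5k was higher in all 11 pairs, by 1.35-fold to 1.87-fold, and all 11 intervals lay above 1. In cluster 0 it had 171 and 305 CPM in naive and tumor-bearing blood, 224 and 354 in marrow, and 172 and 321 in spleen, and in cluster 4 it had 168 and 230 CPM in blood and 173 and 234 in spleen. Ndufa3 was higher in all 11 as well, by 1.25-fold to 1.62-fold, with all 11 intervals above 1. Atp5g3 was higher in all 11 with 9 intervals above 1. Cox7a2l was lower in 9 of 11, and the exceptions were cluster 4 in blood (488 and 508 CPM) and in spleen (470 and 484 CPM). Of its intervals, 2 in blood, 1 in marrow and 1 in spleen lay below 1. The clusters share the libraries, so they are no replicates.

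**Figure D5:**
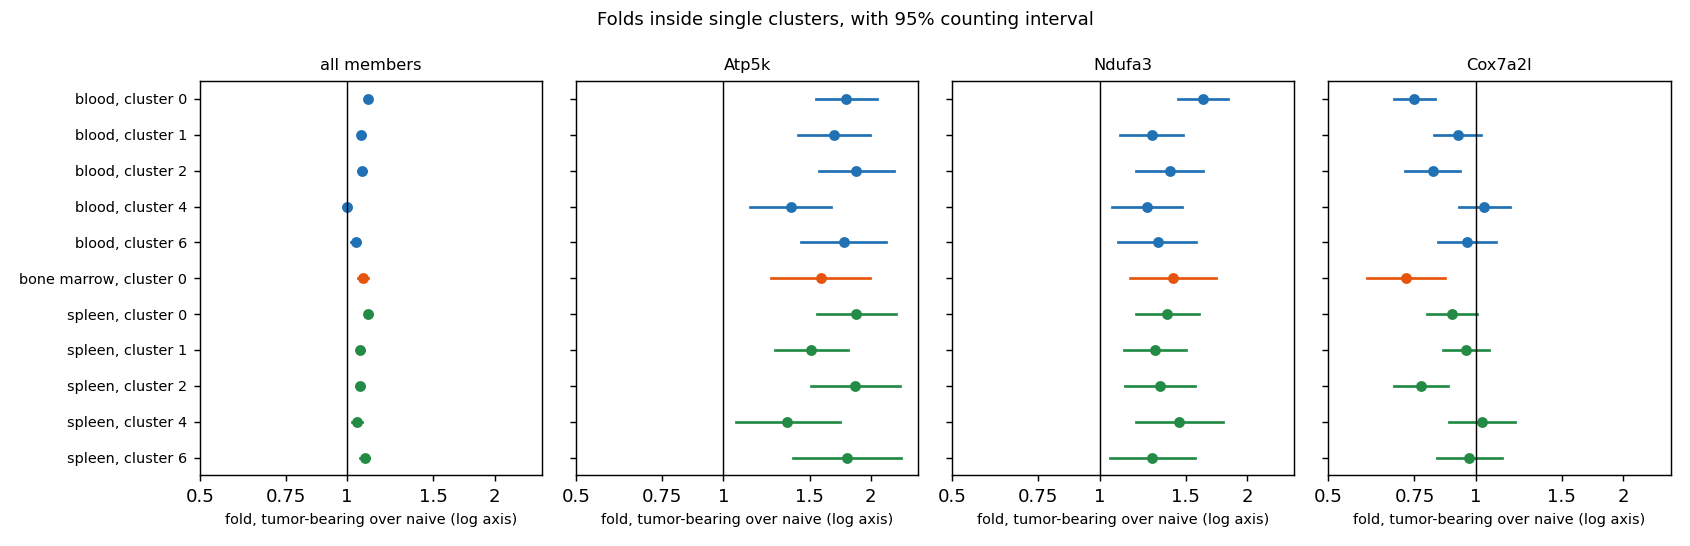
Fold of tumor-bearing over naive (x axis, log scale) for the summed level and 3 members in each cluster with at least 30 cells in both libraries (y axis), with 95% counting intervals as lines. All 11 intervals of Atp5k and of Ndufa3 lie right of 1, and Cox7a2l lies left of 1 except in cluster 4.

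The 13 protein genes of the mitochondrial genome, the partners of these subunits, had a summed level in tumor tissue that was not below those of tumor-bearing blood and spleen. Their summed level was 26075 and 28975 CPM in naive and tumor-bearing blood, 28337 and 32775 in marrow, 27587 and 30782 in spleen, and 31452 in tumor tissue. In tumor-bearing mice they were 1.11-fold higher in blood, 1.16-fold in marrow and 1.12-fold in spleen, and tumor tissue was 1.09-fold above tumor-bearing blood and 1.02-fold above tumor-bearing spleen. The ratio of the UMIs of these 13 genes to those of the 90 members was therefore 1.66 in tumor tissue and between 1.21 and 1.34 in the other libraries. Of 12 measured, 11 were higher in tumor-bearing blood, 10 in marrow and 12 in spleen, where 52.9%, 54.3% and 54.3% of all genes were. In tumor tissue 6 of 12 were higher than in tumor-bearing blood and 5 of 12 than in tumor-bearing spleen. Of all genes, 40.7% and 40.6% were. The median log2 ratios of the 12 were 0.03 and -0.13, so the sum and the median over spleen differ in sign. ND3, a complex I subunit, had the largest ratios of these in blood, marrow and spleen, with log2 values of 0.60, 0.58 and 0.58. It was lower in tumor tissue, at -0.71 against tumor-bearing blood and -0.56 against tumor-bearing spleen. The median mitochondrial share of a cell, which is also a common measure of cell quality, ran from 2.85% in naive blood to 3.46% in tumor-bearing bone marrow and was 3.33% in tumor tissue, and its part in these values was not tested.

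Other genes of the same metabolism were compared as lists. Beside their counts, 52.9% of all genes measured were higher in tumor-bearing blood, and 54.3% in marrow and in spleen. In tumor tissue 40.7% were higher than in tumor-bearing blood and 40.6% than in tumor-bearing spleen. Of 22 further respiratory chain genes outside the prefixes, 9 were measured; 8 were higher in tumor-bearing blood, 8 in marrow and 7 in spleen, and 5 in each tumor tissue comparison. Among them Higd1a, a hypoxia-induced factor of complex IV, had 125 CPM in tumor-bearing blood and 229 in tumor tissue, while its relative Higd2a had 185 and 94.2. Atpif1, the inhibitor of the ATP synthase, had 187 and 281 CPM, and cytochrome c (Cycs) 364 and 540 CPM. The largest difference of the 9 was downward: Surf1 had 54.8 CPM in tumor-bearing blood and 25.1 in tumor tissue.

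The tricarboxylic acid cycle list had most of its genes higher in tumor-bearing marrow and most lower in tumor tissue. Of 15 measured, 9 were higher in tumor-bearing blood, 14 in marrow and 9 in spleen. In the tumor tissue comparisons 3 and 4 were higher, where 40.7% and 40.6% of all genes were. The medians were 0.05, 0.27, 0.03, -0.16 and -0.21 on the log2 scale, beside 0.01, 0.04, 0.02, -0.13 and -0.15 over all genes. In tumor tissue the list's medians were thus close to those of all genes. Of 12 regulators of mitochondrial biogenesis 5 were measured, and all 5 were lower in tumor tissue than in tumor-bearing blood and spleen. Tfam, the packaging factor of mitochondrial DNA, had 30.1 CPM in tumor-bearing blood and 15.5 in tumor tissue. The coactivator gene Ppargc1a had 0 UMIs in tumor-bearing blood, which allows a level of up to 0.663 CPM.

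Glycolysis genes differed in the other direction in tumor tissue. Of 15 measured, 15 were higher than in tumor-bearing blood and 14 higher than in tumor-bearing spleen. In each comparison 12 were higher by 1.5-fold or more, where 17.1% and 16.9% of all genes were. The median log2 ratios were 1.65 and 1.83. Ldha, lactate dehydrogenase A, had 303 CPM in tumor-bearing blood and 1165 in tumor tissue. The glucose transporter gene Slc2a1 had 29.8 and 214 CPM, and the triosephosphate isomerase gene Tpi1 126 and 741 CPM. In tumor-bearing over naive the glycolysis medians were 0.21 in blood, 0.34 in marrow and 0.07 in spleen. CPM are shares of a library, so genes that take more of the UMIs in tumor tissue lower the share of others, and the part of this in the lower respiratory chain values was not tested.

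A promoter entry was found for 77 of the 90 members. NRF1 and ETS factors such as GABPA are the best known activators of nuclear respiratory genes. Their motifs were searched on both strands in the 250 bases before each RefSeq start. The NRF1 motif, GCGCA and GCGC with any 1 base N between them, was present in 16.9% of members with an entry. It was present in 4.23% of all 27025 genes with a RefSeq promoter entry, which are the background of each motif. The ETS motif CCGGAAG was present in 19.5% against 7.83%, and the SP/KLF motif GGGCGG in 42.9% against 35.4%. The YY1 motif AAGATGG was present in 2.60% against 5.18%, and the ERR motif AAGGTCA in 5.19% against 4.70%. Member windows were richer in G and C, with a median of 57.2% against 52.4%. Each motif was counted by itself, whether or not its match overlapped that of another motif, and the printed windows hold 1 match each. A match describes these letters and is not a binding site.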

How the data were processed

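RNA was counted in single CD11b-enriched cells of 7 libraries, 1 per tissue and state, so libraries were grouped by those labels. Per the labels' protocols, libraries were made on a Chromium instrument with 3' chemistry, and the submitters' processing notes name Cell Ranger and the build mm10. Its version, the gene annotation and how cells were filtered were not given in the sources used here. UMI counts for each gene in each cell were deposited by the authors, and are not scaled to gene length, and a table of cells with library, cluster and, per the file headers, the mitochondrial fraction of each cell. Of the 4527 cells listed there, 237 had no counts and were left out. Summed counts matched the listed totals in each of the 4290 cells. Cells held 854 UMIs or more and at most 9.86% mitochondrial UMIs, and none was filtered out. Doublets were not called. Other deposited files were not used here.

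UMIs were summed over cells and scaled to 1000000 UMIs (CPM). With 1 library per group no tissue has a test of its own. As an alternative added after seeing the data, summed counts of the 6 libraries of blood, marrow and spleen were tested for the state with tissue as a block (edgeR's quasi-likelihood test, TMM scaling, Benjamini-Hochberg adjustment, threshold 0.05), on the 5019 genes measured in all 3 tissues, and again without each tissue. Folds carry an exact 95% conditional binomial interval, which covers counting error only and is too narrow for molecules that share cells. A gene was called at 1.5-fold or more, and at 2-fold as an alternative. The floor for a count of 0 was 3 UMIs in a library. The 5 comparisons, the members and all lists were chosen with earlier results of these data known. The genes given in every library were those with the 5 largest and the 5 smallest log2 ratios in each comparison, the isoform sets and the highest mean level of each role. Other genes were named after their values were seen. The other settings were another total, equal weight of cells, thinning to 5000 UMIs, leaving out the deepest 2% of cells or the top cell, 1 cluster, an equal cluster mix, subunits only, no filter, and intervals wholly past 1. The fold and block scripts were tested on simulated data with known changes. In it the block test made more false calls than its threshold allows, so adjusted p-values just under that threshold are weak.

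Overlaps, shared 3' sequence (60-base words) and transcript lengths came from GENCODE M21 (GRCm38), promoters from RefSeq (GRCm38.p6). Python 3.11.15, numpy 2.4.6, scipy 1.17.1, pandas 2.3.3, R 4.3.3 and edgeR 4.0.16 were used.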

Additional observations from a re-analysis of the deposited data

How the results depend on the processing

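No summed ratio turned its direction under any setting run. Libraries were paired by tissue only, in the test with tissue as a block: it called 3 members, and 2 without blood, 4 without bone marrow and 4 without spleen. The summed ratio of tumor tissue over tumor-bearing blood, 0.840, became 0.798 without mitochondrial, ribosomal-protein and haemoglobin genes in the total, 0.828 with cells weighed equally, 0.828 with cells thinned, 0.830 without the deepest 2% of cells, 0.848 with subunits only and 0.824 without clusters 11, 12, 13 and 17 (a setting chosen after seeing the data). Over tumor-bearing spleen, 0.826 became 0.777, 0.810, 0.817, 0.818, 0.833 and 0.812 in the same order. In blood, 1.06 became 1.05 with cells weighed equally and 1.10 in cluster 0, the largest shared cluster; marrow became 1.04 with the reduced total, and spleen went from 1.07 to 1.06 in its largest shared cluster.

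The number of members past 1.5-fold in tumor tissue, 11 against tumor-bearing blood and 11 against spleen, was 7 and 7 with subunits only, 17 and 19 with no filter on low values, and 4 and 4 at 2-fold. With the reduced total it was 13 and 16, all lower, and without clusters 11, 12, 13 and 17 it was 10 and 15, all lower. The share of all genes past 1.5-fold was counted in the main setting only. Counts of members under another total, filter, weight or set of cells therefore have no background beside them. In blood it was 1, and became 2 with thinned cells, 4 in cluster 0, 4 with no filter and 0 at 2-fold. In marrow 4 (3 higher, 1 lower) stayed 4 without the top cell of each gene, but as 1 higher and 3 lower, and became 7 with thinned cells, 2 with subunits only, 12 with no filter and 0 at 2-fold. In spleen 1 became 5 with no filter and 0 at 2-fold. The largest shared cluster and the equal cluster mix could not be run for tumor tissue, which shares too few cells per cluster with blood or spleen. Depth limits marrow most: 3 UMIs are 4.86 CPM in its tumor-bearing library.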
